A study of Rattus norvegicus with 16 samples.

Results

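The transcripts described here are 10 genes of skeletal muscle, measured in liver RNA of rat pups: Myl11, Tnnc2, Tnni2, Tnnt1, Tnnc1, Myl4, Lmod2, Mb, Eno3 and Cryab. They were chosen from 26913 genes or identifiers on the array because their liver signal was high on some arrays, so the values that chose them are given as a description and without a test. They are read by 11 probes, 1 for each gene and a second for Tnnt1, matched by RefSeq accession. All were kept whether dim or bright. The samples were livers of male Sprague-Dawley rats aged 21 days, the RNA of 2 pups pooled for each array and 4 arrays in each of 4 groups. MM pups were born to dams given a mixture at 1 mg per kg per day and were raised by another such dam. M pups stayed with their own mixture dams. CC pups were raised by another control dam, and C pups stayed with their own control dams. The mixture held organochlorine pesticides, polychlorinated biphenyls and methylmercury dissolved in corn oil, and control dams received the oil alone, through gestation and lactation. The liver RNA was labelled with Cy5, and a universal reference RNA of 14 rat cell lines with Cy3, in every case. Arrays are named by group and the number in their label.

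Slide 2 held the MM and M arrays and slide 1 the CC and C arrays, so mixture and slide cannot be told apart. A slide had 2 rows, and each of its groups had 2 arrays per row. The median Cy5 spot intensity was 87 to 102 over a local background of 67 to 73, no spot was saturated, and 46.2% to 53.9% of spots were well above background in Cy5. The liver label held against its markers: all 10 hepatocyte genes looked up, among them Alb and Apoa1, were well above background on all 16 arrays. CC 1 and CC 2, both in row 1 of slide 1, stood apart from the other arrays in the muscle genes. Results that rest on them are in most cases given with and without them.

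Skeletal muscle contracts when calcium, released from the sarcoplasmic reticulum, binds troponin C on the thin filament, and troponin I and troponin T then let tropomyosin move away from the myosin binding sites. Fast and slow fibres use different genes for many of these subunits, and muscle also has its own forms of glycolytic and creatine kinase enzymes. Hepatocytes are not known to build sarcomeres, and a liver sample also holds cells of vessels, capsule and blood.

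All 10 muscle transcripts were high on CC 1 and CC 2 and on no other array. Each array's log2 Cy5, normalised and with background corrected, was set against the median of the 8 arrays of its slide, and the difference is called the deviation. For a probe not well above background on the other arrays of the slide, that median is not a measured level, and the deviation is not an exact fold. The mean deviation of the 10 genes was 3.40 on CC 1 and 3.39 on CC 2, and between -0.089 and 0.12 on the other 14 arrays. All 10 were over 2-fold above the slide median on both CC 1 and CC 2, where 0.294% of all genes were. On CC 1 alone 0.554% of all genes passed that fold and on CC 2 alone 0.349%. These shares are background to the way the genes were chosen. On the other 14 arrays no deviation of any of the 10 genes was below -0.37 or above 0.48. In pooled tissue RNA, more muscle cells and more of these RNAs per cell cannot be told apart.

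**Figure D1:**
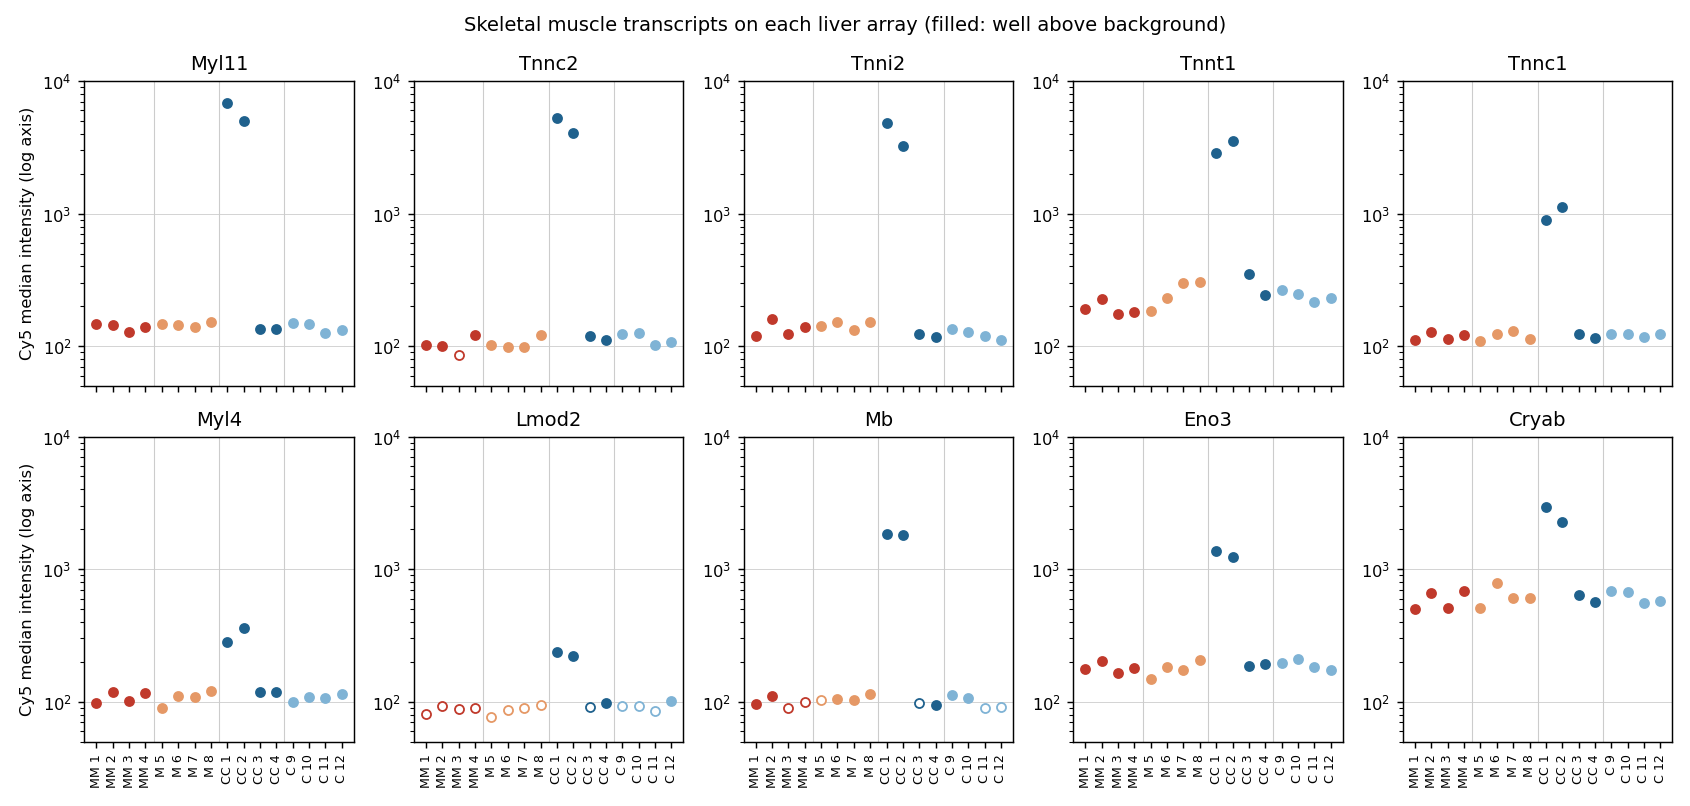
Cy5 median intensity (log axis) of the 10 muscle transcripts on each of the 16 arrays, in the order MM, M, CC and C. Filled points were well above background and open points were not. In every panel CC 1 and CC 2 lie above all other arrays, for instance at 6808 and 4964 for Myl11, whose other 14 arrays lie between 126 and 154.

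The promoters of 4 of these genes are shown because their transcripts moved together on the same arrays. RefSeq (assembly GRCr8) gave a window from 250 bases before to 50 bases after a transcription start for 8 of the 10 genes. The windows lie at chr1:191260039-191260338 on the plus strand, chr3:173935290-173935589 on the minus strand, chr7:110647693-110647992 on the minus strand and chr1:78348785-78349084 on the plus strand, each printed 5′ to 3′ along the gene. Capitals mark the E-boxes CAGCTG and CACCTG, the letters to which myogenic factors such as Myod1 bind, and the TATA box TATAAA, on either strand, where CACCTG reads CAGGTG and TATAAA reads TTTATA.
Myl11: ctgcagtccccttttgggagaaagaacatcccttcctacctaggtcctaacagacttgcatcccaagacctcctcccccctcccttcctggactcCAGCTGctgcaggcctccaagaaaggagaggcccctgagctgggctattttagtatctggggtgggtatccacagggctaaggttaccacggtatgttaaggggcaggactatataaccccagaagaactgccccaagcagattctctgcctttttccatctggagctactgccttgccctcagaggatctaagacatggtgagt
Tnnc2: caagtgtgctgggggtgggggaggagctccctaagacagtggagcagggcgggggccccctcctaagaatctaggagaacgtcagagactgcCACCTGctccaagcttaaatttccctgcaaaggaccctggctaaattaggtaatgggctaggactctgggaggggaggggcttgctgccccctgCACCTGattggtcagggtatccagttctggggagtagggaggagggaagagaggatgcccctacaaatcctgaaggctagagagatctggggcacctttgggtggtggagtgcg
Mb: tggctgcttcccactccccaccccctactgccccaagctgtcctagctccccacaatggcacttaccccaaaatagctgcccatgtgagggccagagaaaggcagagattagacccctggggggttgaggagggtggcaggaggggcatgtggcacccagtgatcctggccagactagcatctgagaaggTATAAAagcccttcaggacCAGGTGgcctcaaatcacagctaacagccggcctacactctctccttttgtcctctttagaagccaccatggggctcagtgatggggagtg
Tnnt1: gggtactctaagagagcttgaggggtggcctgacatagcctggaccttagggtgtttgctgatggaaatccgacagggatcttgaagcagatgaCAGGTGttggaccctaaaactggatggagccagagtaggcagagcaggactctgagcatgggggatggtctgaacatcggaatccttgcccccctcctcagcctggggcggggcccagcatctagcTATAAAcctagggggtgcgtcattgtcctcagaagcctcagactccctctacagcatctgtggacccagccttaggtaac

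CAGCTG stood in the windows of Myl11, Lmod2, Myl4 and Eno3, and in 15.1% of all 33469 windows of this length. CACCTG stood in those of Tnnc2, Tnni2, Mb and Tnnt1, and in 18.8% of all windows. Thus 8 of the 8 windows held at least 1 of these E-boxes, against 30.8% of all windows. The only E-box of Lmod2 began at 39 and that of Eno3 at 1 counted from the transcription start, so neither lay before it. TATAAA was found in those of Tnni2, Mb, Tnnt1 and Myl4, and in 14.2% of all. Counted from the start, these letters began at -60 in Mb and at -30 in Tnnt1. For Myl11, Tnni2, Myl4 and Eno3 the start used lay inside the annotated gene span and not at its outer end. The MEF2 motif and the CArG box of serum response factor were in 0 of the 8 windows, and in 3.29% and 1.64% of all. No 2 matches overlapped in the 4 printed windows. A match describes the letters and no binding was measured.

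The fast fibre genes had the highest deviations. Myl11, the regulatory light chain of fast myosin, had a Cy5 intensity of 6808, 4964, 134 and 136 on CC 1 to CC 4, against 151, 146, 126 and 132 on C 9 to C 12. On slide 2 it read 148, 146, 129 and 140 on MM 1 to MM 4, against 147, 146, 139 and 154 on M 5 to M 8. These values include the local background of 67 to 73, and only CC 1 and CC 2 stand clear of the rest. The log2 deviation of Myl11 was 5.40 on CC 1 and 5.08 on CC 2, and its signal there was 43.2-fold and 34.6-fold that of the mean of the 6 other arrays of slide 1. It was well above background on all 16 arrays.

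Tnnc2, the calcium-binding troponin C of fast fibres, read 5289, 4035, 120.3 and 111 on CC 1 to CC 4, against 124, 126, 102 and 109 on C 9 to C 12. It read 103, 101, 85.5 and 122 on MM 1 to MM 4, against 102, 99.3, 98 and 121 on M 5 to M 8. The lowest, on MM 3, was the only array on which it was not well above background. Its log2 deviation was 5.40 on CC 1 and 5.11 on CC 2, or 43.1-fold and 35.4-fold over the 6 other arrays of the slide. Tnni2, the inhibitory troponin of fast fibres, read 4828, 3253, 124 and 117 on CC 1 to CC 4, against 135, 128, 119 and 111 on C 9 to C 12, and on slide 2 it lay between 120.5 and 160.3. Only CC 1 and CC 2 were apart from the rest, at 36.4-fold and 26.5-fold over the 6 other arrays of slide 1 (log2 deviations 5.17 and 4.71).

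The slow fibre genes were high on the same arrays, with smaller deviations. Tnnt1, the tropomyosin-binding troponin of slow fibres, read 2890.3, 3548, 348 and 245 on CC 1 to CC 4, against 264, 247, 217 and 231 on C 9 to C 12. It read 191, 228, 174 and 180.3 on MM 1 to MM 4, against 183, 231, 299.8 and 308 on M 5 to M 8. CC 1 and CC 2 were 10.02-fold and 13.1-fold over the 6 other arrays of slide 1 (log2 deviations 3.36 and 3.74). CC 3, M 7 and M 8 formed a lower step, at deviations of 0.47, 0.47 and 0.48. The second probe of Tnnt1 gave 3.47 on CC 1 and 3.38 on CC 2 but 0.13, 0.13 and 0.17 on CC 3, M 7 and M 8. The step was thus smaller on the second probe, and the order of CC 1 and CC 2 turned.

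Tnnc1, the troponin C of slow fibres and heart, read 895, 1119.8, 123 and 115 on CC 1 to CC 4, against 123, 124, 117 and 123 on C 9 to C 12, and from 109.8 to 131.5 on slide 2. Its signal on CC 1 and CC 2 was 6.72-fold and 8.81-fold that of the 6 other arrays of slide 1. Myl4, the essential light chain of embryonic muscle and atrium, read 283, 358, 119.5 and 118 on CC 1 to CC 4, against 99, 109.5, 106 and 114 on C 9 to C 12, and from 89 to 121 on slide 2. It was 2.52-fold and 3.34-fold over the 6 other arrays, and its log2 deviation on CC 1, 1.25, was the lowest of the 10 genes on either array. Lmod2, a leiomodin that binds the thin filament's pointed end in striated muscle, read 236, 221, 91.5 and 97.8 on CC 1 to CC 4, against 92.5, 92.5, 85.5 and 102 on C 9 to C 12. On slide 2 it read 77 to 94. It was well above background on 0 of 4 MM, 0 of 4 M, 3 of 4 CC and 1 of 4 C arrays, and it passed the filter on dim probes only through the CC group. CC 1 and CC 2 were 3.26-fold and 3.09-fold over the mean of the other 6, of which 2 were well above background.

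The oxygen, energy and stress genes of muscle were also high. Mb, myoglobin, the oxygen store of oxidative fibres and heart, read 1839.8, 1814, 97.3 and 94.5 on CC 1 to CC 4, against 112, 108, 90.5 and 91.5 on C 9 to C 12. It read 96.5, 110, 90.5 and 99.5 on MM 1 to MM 4, against 104, 106, 102 and 115 on M 5 to M 8. The 14 low arrays thus read 90.5 to 114.5, and Mb was well above background on 2 of 4 MM, 3 of 4 M, 3 of 4 CC and 2 of 4 C arrays. Its signal on CC 1 and CC 2 was 22.0-fold and 23.1-fold that of the mean of the other 6 arrays of slide 1, of which 3 were well above background.

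Eno3, the muscle form of the glycolytic enzyme enolase, read 1369.5, 1236, 185 and 193 on CC 1 to CC 4, against 195, 210, 184 and 175 on C 9 to C 12, and from 147.5 to 207 on slide 2. This was 6.25-fold and 6.07-fold on CC 1 and CC 2. Cryab, a small heat shock protein of lens, heart and muscle, read 2948, 2285, 636 and 564 on CC 1 to CC 4, against 688, 676, 553 and 576 on C 9 to C 12, and from 502.5 to 784 on slide 2. It was 4.10-fold and 3.51-fold higher on CC 1 and CC 2. Both genes were well above background on all 16 arrays.

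Among all 26913 genes ordered by deviation, Myl11, Tnnc2 and Tnni2 stood at places 4, 5 and 6 on CC 1 and at places 9, 8 and 11 on CC 2. Mb stood at 10 and 13, Tnnt1 at 25 and 24, Tnnc1 at 34 and 33, and Eno3 at 42 and 43. Cryab stood at 54 and 62, Lmod2 at 70 and 67, and Myl4 at 106 and 65. These places count deviations as measured, dim probes included. The offset of 50 understates the folds of the dim genes, and also those of genes such as Myl11 whose other arrays read near background.

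The other muscle genes came from textbook lists of 98 genes, of which 86 were on the array. These lists were chosen with earlier results of these data known. On CC 1 and CC 2 together, 32 of the 86 (37.2%) were over 2-fold above the slide median, where 0.294% of all genes were. The median deviation of the 86 was 0.59 on CC 1 and 0.27 on CC 2. Of 26 genes of the fast sarcomere list, which also holds genes not confined to fast fibres, 13 passed on both arrays. Of 5 of the slow sarcomere 4 passed (Myh7, Myl2, Myl3 and Tnni1). Of 16 of calcium handling and excitation 6 passed, and of 17 of muscle energy use 7. Of 22 muscle stress genes and regulators 2 passed, Fhl1 and Cav3. A further 9 myogenic factors and satellite cell genes, among them Myod1, Myog and Pax7, were counted apart from the 86, and 0 of them passed. On the other 14 arrays Cox8b on C 10, at 1.72, was the only deviation of the 86 past 2-fold. Of the 86, 30 were well above background on CC 1 and CC 2 and on no other array.

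The structural genes included Acta1, the skeletal alpha-actin, with an intensity of 617 on CC 1 and 467.5 on CC 2, at least 10.9-fold and 8.60-fold over the 6 other arrays of slide 1. "At least" is written where a probe was well above background on 0 of those 6, whose level was then set no lower than the lowest signal well above background on each array. Tnnt3, the tropomyosin-binding troponin of fast fibres, was at least 17.9-fold and 13.01-fold higher. Ckm, the muscle creatine kinase that buffers ATP, was at least 43.6-fold and 35.1-fold, and Ckmt2, its mitochondrial counterpart, at least 22.8-fold and 16.9-fold. Atp2a1, the calcium pump of the fast fibre reticulum, was at least 29.2-fold and 20.1-fold higher, and Cox6a2, a muscle subunit of cytochrome oxidase, at least 36.0-fold and 38.3-fold. Myh7, the slow myosin heavy chain, was at least 10.2-fold and 15.3-fold. The myosin heavy chain genes are close copies of each other and lie partly in tandem, so the assignment of signal among Myh1, Myh2, Myh8, Myh7 and Myh6 is uncertain.

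**Figure D2:**
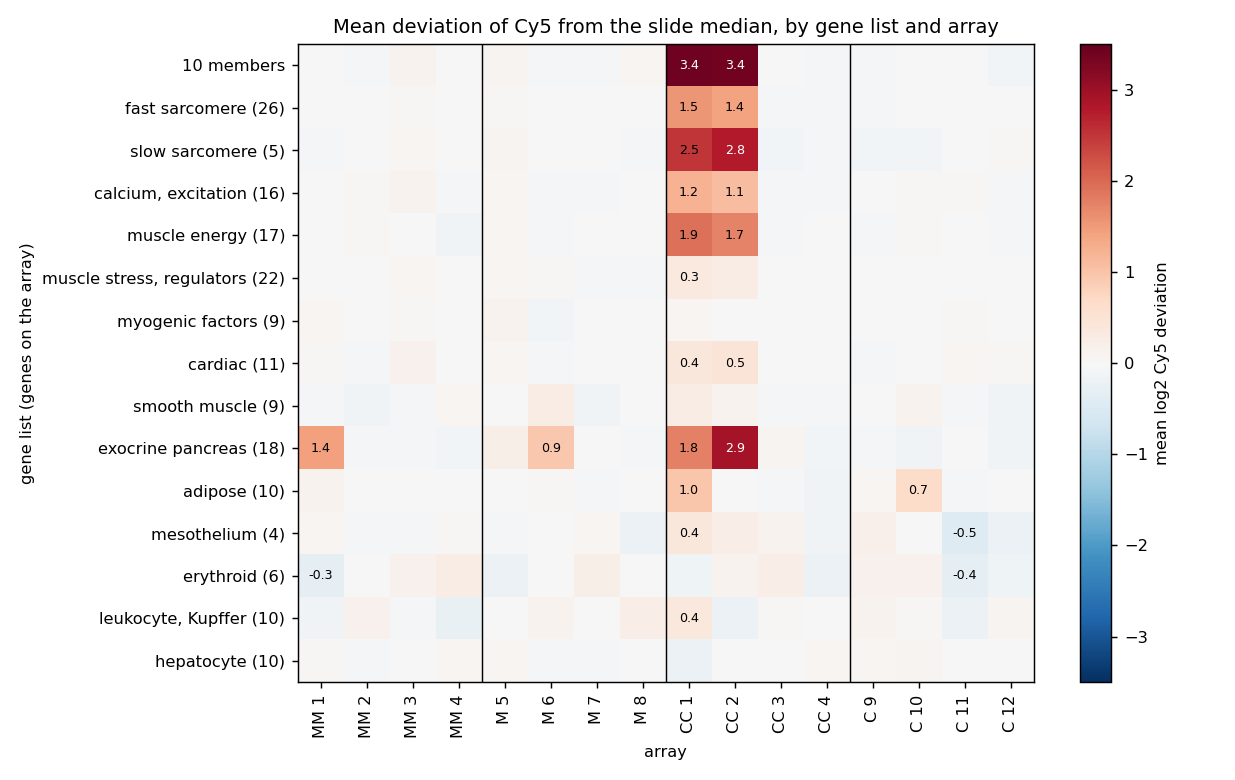
Mean log2 Cy5 deviation from the slide median for each gene list (rows, with the number of genes on the array) on each array (columns, in the order MM, M, CC and C). Values of 0.3 or more in size are printed. The 10 muscle transcripts stand at 3.40 on CC 1 and 3.39 on CC 2, while the pancreas genes are also high on MM 1 and M 6, and the adipose genes on CC 1 and C 10.

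The genes whose pattern was most like that of the 10 were ranked by Pearson's r of their deviation with the mean deviation of the 10 over the 16 arrays, among 739 genes with a symbol and a span of at least 1 in log2 deviation. The first 10 were Myh8, Cox6a2, Ckm, Myh1, Ckmt2, Pgam2, Atp2a1, Acta1, Tnnt3 and Nrap, at r from 0.999 to 0.995. Myh8 is the perinatal myosin heavy chain, Pgam2 the muscle phosphoglycerate mutase and Nrap a protein of myofibril assembly. Of 42 genes with r above 0.95, 32 were in the muscle lists. The points share the arrays and their scaling, and the high values rest on CC 1 and CC 2. Each of the 10 transcripts had r of 0.953 to 0.997 with the mean of the other 9, which became -0.39 for Lmod2 to 0.65 for Eno3 without those arrays.

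As measured, the 5 largest deviations on CC 1 apart from the 10 belonged to Cox8b, at 5.68, Myh8, at 5.47, and Ckm, Cox6a2 and Atp2a1. Cox8b is a cytochrome oxidase subunit of muscle and brown fat. On CC 2 they belonged to Ctrb1, at 5.80, Myh8, at 5.57, Cox8b, at 5.50, and Prss1 and Amy2a3. Ckm, Cox6a2, Atp2a1, Prss1 and Amy2a3 were well above background on 0 of the 6 other arrays of slide 1, so they have no exact place in this order. Ctrb1, Prss1 and Amy2a3 encode digestive enzymes of the exocrine pancreas: chymotrypsinogen, trypsinogen and amylase. On CC 2 Prss1 was at least 49.0-fold and Amy2a3 at least 39.2-fold above those 6 arrays.

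Of 79 genes over 2-fold above the slide median on both arrays, 10 were the transcripts described here, 32 were other listed muscle genes, 11 were listed pancreas genes, 1 was the cardiac gene Myh6 and 25 were in no list. Of these 25, 16 had a symbol. They included Sypl2 at 4.08 on CC 1 and 3.80 on CC 2, Apobec2 at 2.64 and 2.32, Hrc, a calcium-binding protein of the reticulum, at 1.68 and 1.44, and the pancreatic Ctrl at 1.81 and 3.61.

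Markers of other cell types moved with the muscle transcripts on CC 1 and CC 2 in part, and their part in the muscle signal was not tested. Of 18 pancreas genes 11 were over 2-fold above the slide median on both arrays, and each of these was higher on CC 2. Their summed Cy5 intensity over the 18 genes was 1472 to 4977 in MM, 1665 to 3656 in M, 1688 to 19505 in CC and 1628 to 1780.5 in C. Cuzd1 and Gp2 were not well above background on any array. The pancreas genes were also high on MM 1 and M 6, where the mean deviation of the 10 muscle transcripts was -0.0018 and -0.075. Prss1 stood at 4.31 on CC 1, 5.79 on CC 2, 3.33 on MM 1 and 1.92 on M 6.

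Of 10 adipose genes 0 passed on both arrays, and their summed intensity was 2835 to 5638 in MM, 3249 to 4694 in M, 4189.8 to 7611 in CC and 4141 to 6860.3 in C. Ucp1, the uncoupling protein of brown fat, stood at 2.81 on CC 1 and 2.61 on C 10, and between -0.12 and 0.09 on the other 14 arrays, CC 2 included. Lep, Lipe and Elovl3 were not well above background on any array. The mean deviation of the 10 muscle transcripts on C 10 was -0.024.

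Of 11 cardiac genes only Myh6, at 4.32 on CC 1 and 4.97 on CC 2, passed on both arrays. Nppa, Myl7, Mybpc3 and Hcn4, which mark heart, were well above background on 0 of 16 arrays. Of the other 6 of the list, Actc1, Ryr2, Tnni3 and Tnnt2 were well above background on all 16 arrays, Nppb on 12 and Pln on 3, with deviations on CC 1 and CC 2 from -0.42 for Ryr2 to 0.38 for Nppb. The summed intensity of the cardiac list was 1191 to 1324 in MM, 1174 to 1339 in M, 1310 to 2831 in CC and 1260.5 to 1342 in C. Of 9 smooth muscle genes 0 passed on both arrays, and Acta2 stood at 0.18 on CC 1 and 0.08 on CC 2. The smooth muscle list had a median deviation of 0.16 on CC 1 and 0.08 on CC 2.

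Of 10 hepatocyte, 4 mesothelial, 10 leukocyte and Kupffer cell and 6 erythroid genes 0 passed on both arrays, but their levels were not even. All 10 hepatocyte genes lay below the slide median on CC 1, where the list's median deviation of -0.25 was the lowest of the 16 arrays, while on CC 2 it was -0.0054. Their summed intensity was 927682 to 1240710 in MM, 1078030 to 1279690 in M, 1249510 to 1395350 in CC and 1106360 to 1391800 in C. The 4 mesothelial genes, among them Msln and Upk1b, had median deviations of 0.40 on CC 1 and 0.27 on CC 2, the highest of the 16 arrays, with summed intensities of 892 to 1079 in MM, 926 to 1139 in M, 1023.5 to 1499 in CC and 715 to 1366.5 in C. The leukocyte list had a median of 0.21 on CC 1 and -0.20 on CC 2, and sums of 5431 to 9994 in MM, 5683 to 9636 in M, 8063 to 12248 in CC and 7085 to 10546 in C. In that list Lyz2, the lysozyme of myeloid cells, stood at 1.19 on CC 1 and -0.11 on CC 2. The erythroid list had a median of -0.14 on CC 1 and 0.14 on CC 2.

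CC 1 and CC 2 were also compared with each other, 1 array against 1 array, and neither the fast nor the slow fibre genes all went the same way under every measure. Myl11, Tnnc2 and Tnni2 were higher on CC 1 than on CC 2, by 0.32, 0.29 and 0.46 on the log2 Cy5 scale, while Tnnt1, Tnnc1 and Myl4 were lower on CC 1, at -0.38, -0.39 and -0.40. Mb, Lmod2 and Eno3 differed by less, at -0.07, 0.08 and 0.04, and Cryab by 0.23. The median of all genes was -0.0063. In the log2 ratio Tnnc2 turned to -0.04 and the other 5 of these 6 kept their sign. The second probe of Tnnt1 went the other way, at deviations of 3.47 on CC 1 and 3.38 on CC 2. With Cy5 scaled to the 75th percentile of each array the differences of Myl11, Tnnc2 and Tnni2 were 0.40, 0.33 and 0.50, and those of Tnnt1, Tnnc1 and Myl4 were -0.36, -0.38 and -0.39.

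Among the other muscle genes past 2-fold on both arrays, 9 of 13 on the fast sarcomere list were higher on CC 1. On the slow list 4 of 4 were higher on CC 2. The fast list also holds genes not confined to fast fibres, among them Acta1, Nrap and Mybpc1, a slow form of myosin binding protein C. Mybpc1 was higher on CC 1 by 0.36, so the 9 do not count fast fibre genes alone. Myh7 stood at -0.59, Myl2 at -0.38, Tnni1 at -0.37 and Myl3 at -0.25 for CC 1 minus CC 2. The exceptions of the fast list were Myh1 at -0.36, Myh2 at -0.28, Myh8 at -0.10 and Des at -0.04. Of the calcium genes past 2-fold on both arrays 5 of 6 were higher on CC 1, and of the energy genes 6 of 7. Casq1, the calcium store of the fast reticulum, stood at 0.64, Atp2a1 at 0.54, Ckmt2 at 0.43 and Ckm at 0.31, the last of which turned to -0.05 in the ratio. Others differed little, with Fabp3 at 0.06, Sln at 0.08 and Ampd1 at 0.04. Pvalb, the calcium buffer of fast fibres, at -0.06 and Cox6a2 at -0.09 were lower on CC 1. With 1 array each there is no replicate check on these differences.

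Both cross-fostering comparisons and both mixture comparisons were then described for the 10 transcripts as mean differences of log2 Cy5 between 4 arrays and 4 arrays. Between CC and C, which asks what cross-fostering changed in control pups, all 10 were higher in CC, by 0.84 to 2.64 with a median of 1.70. Myl11 averaged 10.4 ± 3.07 in CC and 7.78 ± 0.065 in C (SD of log2 Cy5, n = 4 arrays each). Without CC 1 and CC 2 the differences of the 10 were -0.06 to 0.30, with a median of -0.02. Within row 1, where CC 1 and CC 2 face C 9 and C 10, they were 1.71 to 5.24, and within row 2 they were -0.13 to 0.34. The 4 CC arrays all lay above the 4 C arrays for 2 of the 10, Myl4 and Tnnt1, beside 2.15% of all genes whose groups did not overlap. In Myl4 the deviations of CC 3 and CC 4, 0.01 and 0.05, lay just above that of the highest C array at -0.01.

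Between MM and CC, cross-fostered pups with and without the mixture, the 10 transcripts were lower in MM by the mirror of this, at -2.74 to -0.76 with a median of -1.76. Tnnc2 averaged 7.33 ± 0.20 in MM and 10.1 ± 3.06 in CC (SD of log2 Cy5, n = 4 arrays each). Without CC 1 and CC 2 the differences were -0.56 to 0.28 with a median of 0.07. Tnnt1 was the gene at -0.56, with 8.33 ± 0.13 in MM. The 4 MM arrays lay below the 4 CC arrays for 2 of the 10, Lmod2 and Tnnt1, beside 7.18% of all genes whose groups did not overlap.

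Between MM and M, cross-fostered and own-dam pups under the mixture, the differences were -0.32 to 0.16 with a median of 0.04, and the groups overlapped for all 10 (1.79% of all genes did not overlap). Tnnt1 was the lowest, at 8.33 ± 0.13 in MM and 8.65 ± 0.27 in M, and its difference was -0.62 within row 2 and -0.02 within row 1. Between M and C they were -0.15 to 0.25 with a median of 0.01, again with overlap for all 10 (8.48% of all genes did not overlap). Tnni2 was the highest, at 7.81 ± 0.18 in M and 7.56 ± 0.13 in C. The comparisons share groups, so their values are given side by side only.

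In the log2 ratio, which also carries the reference channel, the 10 transcripts differed by 0.93 to 2.54 with a median of 1.67 between CC and C, and by -2.96 to -1.10 with a median of -1.77 between MM and CC. Without CC 1 and CC 2 these were -0.11 to 0.33 with a median of -0.02, and -0.59 to 0.17 with a median of -0.05. Between MM and M the ratio differences were -0.33 to 0.14 with a median of 0.04, and between M and C -0.54 to 0.11 with a median of -0.11. Tnnc2 was the gene at -0.54, with a mean log2 ratio of -0.97 in M and -0.42 in C and no overlap between the arrays, and its Cy5 difference was -0.14. The groups did not overlap in the ratio for 1 of the 10 between CC and C (Tnnt1), beside 2.42% of all genes, and for 0 between MM and M, beside 1.99%. They did not overlap for 1 between M and C, beside 14.1%, and for 4 between MM and CC (Tnnc2, Tnnt1, Lmod2 and Myl4), beside 12.7%.

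**Figure D3:**
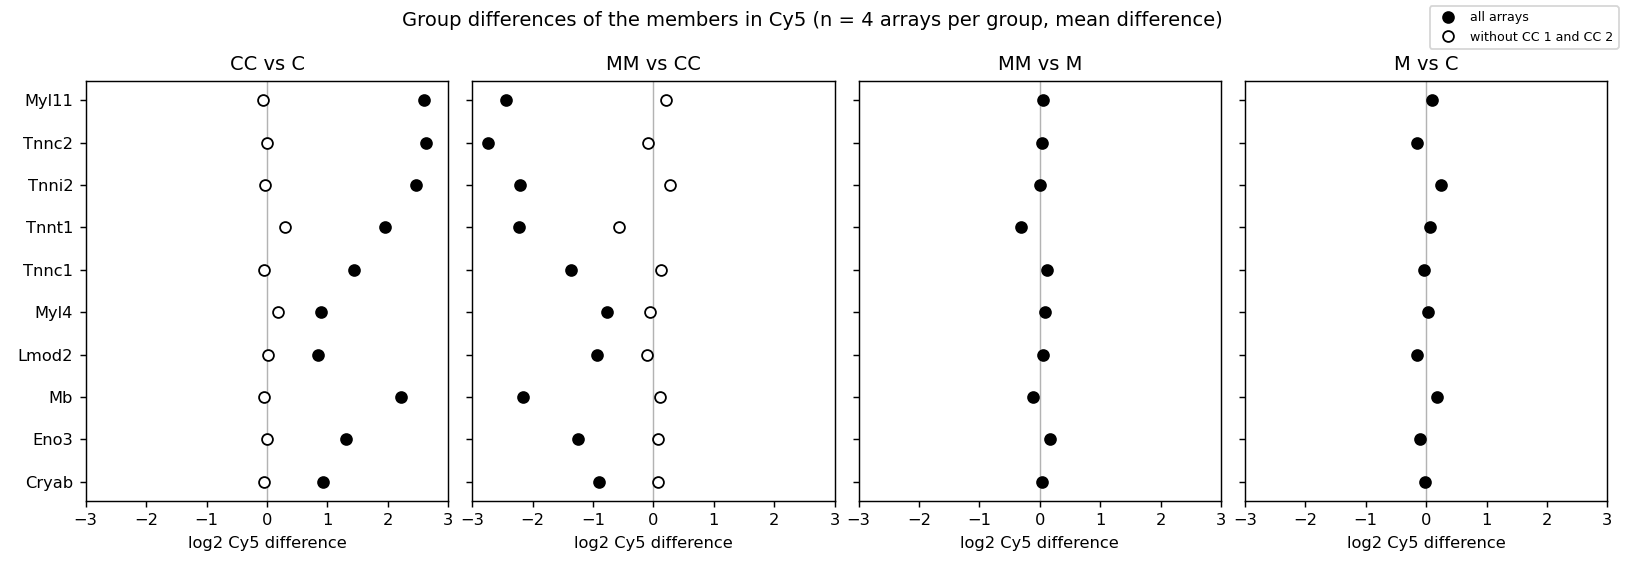
Mean difference in log2 Cy5 of the 10 muscle transcripts for CC against C, MM against CC, MM against M and M against C. Filled points use all 4 arrays of each group and open points leave out CC 1 and CC 2. The open points lie between -0.56 and 0.30, and the MM against M and M against C differences between -0.32 and 0.25.

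The muscle genes that are not among the 10 were tested in the log2 ratio of Cy5 to Cy3 with limma over 12072 genes, Benjamini-Hochberg adjusted. Only probes with Cy5 well above background on 3 or more arrays of some group entered, which 20 of the 86 met. Genes that were bright on CC 1 and CC 2 alone, such as Ckm and Acta1, entered only when this filter was dropped. Between CC and C 0 of the 20 were called, as were 0% of all genes. Before adjustment 7 of the 20 and 336 of all genes had p below 0.05, and the median difference of the 20 was 0.25 beside 0.0086 for all genes. Without CC 1 and CC 2, 0 of the 20 and 261 of all genes had an unadjusted p below 0.05. The median difference of the 20 was then -0.0059. Between MM and M 0 of the 20 were called, as were 0% of all, with 0 of the 20 and 275 of all genes below an unadjusted 0.05 and a median of 0.02. In Cy5 alone limma also called 0 genes in both comparisons, and the interaction of mixture and cross-fostering gave 0 calls among all genes, with 1 of the 20 at an unadjusted p below 0.05. Without the filter limma tested 86 muscle genes and called 0 between CC and C, where 40 of them had an unadjusted p below 0.05, and 0 between MM and M, where 1 had. Of all 26913 genes it called 0 in both comparisons, and 1034 and 877 had an unadjusted p below 0.05. A fit without the filter that also leaves out CC 1 and CC 2 is not given.

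Between M and C 2 of the 20 were called, both higher in M, where 8.19% of all genes were called higher and 20.4% in either direction. Hspb8, a small heat shock protein that works in chaperone-assisted autophagy, had a log2 ratio of -0.13 ± 0.14 in M and -0.66 ± 0.15 in C (SD). It rose by 0.53 ± 0.10 in M (log2 ratio, SE, n = 4 arrays each, limma adjusted p = 0.00196). Tpm1, an alpha-tropomyosin expressed in many tissues, rose by 0.27 ± 0.077 (adjusted p = 0.0194). In Cy5 alone their differences were 0.06 and 0.13, and neither was called. The 1 gene called there was Tpm3, another tropomyosin, at 0.29 (limma adjusted p = 0.0486, against 0.0818 in the ratio). Without CC 1 and CC 2, which changes the shared estimate of the spread, 3 were called: Hspb8, Tpm1 and Jsrp1. The log2 ratio of Jsrp1, a protein of the junctional reticulum, was lower in M by 0.36 (limma adjusted p = 0.00904). Its adjusted p with all 16 arrays was 0.308. In Cy5 alone, with all 16 arrays, Jsrp1 differed by only 0.0065 (limma adjusted p = 0.995). Without the filter on dim probes 3 of the 86 were called, beside 2258 of all 26913 genes. They were Hspb8, Tpm1 and Sgca, a sarcoglycan of the muscle membrane, which was lower in M at -0.42 (adjusted p = 0.00487). With C 11, M 6 or M 8 left out in turn, 1 of the 20 was called. Slide and mixture are the same split here.

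Between MM and CC 5 of the 20 were called, 1 higher and 4 lower, where 7.83% of all genes were called higher, 12.2% lower and 20.0% in either direction. The log2 ratio of Hspb8 was higher in MM by 0.55 ± 0.10 (limma adjusted p = 0.00184). Of the 4 that were lower, Fabp3, the fatty acid binding protein of heart and muscle, had a log2 ratio of -3.20 ± 0.19 in MM and -1.95 ± 1.20 in CC (SD). Jsrp1 had 0.31 ± 0.064 in MM and 1.09 ± 0.71 in CC. Jsrp1 differed by -0.78 ± 0.23 (adjusted p = 0.0274) and Fabp3 by -1.25 ± 0.38 (0.0303). Slc25a4, the muscle and heart ADP/ATP carrier, was at -0.60 ± 0.20 (0.0420) and Hspb6, a small heat shock protein of muscle, at -0.45 ± 0.15 (0.0441). In Cy5 alone 0 of the 5 were called. There Hspb8 differed by only 0.11 (limma adjusted p = 0.63), Jsrp1 by -0.36, Fabp3 by -1.11, Slc25a4 by -0.57 and Hspb6 by -0.34. In the ratio without CC 1 and CC 2, Hspb8 was at 0.69 and still called, while Jsrp1 was at -0.17, Fabp3 at -0.22, Slc25a4 at -0.44 and Hspb6 at -0.13, none of them called. In that fit Ppp1r3c, a subunit that directs protein phosphatase to glycogen, was called lower in MM, at -0.79 (limma adjusted p = 0.0344), against -0.52 with all arrays (0.0778). Without the filter on dim probes 6 of the 86 were called, and 50 had an unadjusted p below 0.05. Of all 26913 genes 2167 were called in that fit, and 5548 had an unadjusted p below 0.05. Of the 6, Hspb8, Jsrp1 and Fabp3 were also called with the filter. The other 3 were Sgca at -0.36, Fbp2, the muscle fructose bisphosphatase, at -0.32, and Scn4a, the sodium channel of skeletal muscle, at 0.30. Scn4a was not well above background in Cy5 on any array, with intensities of 75.5 to 97.5. Its difference therefore does not describe a measured liver level. Slide and mixture are the same split here too. With 1 array left out, the count of the 20 called was 2 without CC 1, 1 without CC 2, 9 without CC 3, 8 without CC 4, 2 without MM 1, 3 without MM 2 and 1 without MM 4.

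The reference RNA holds no pup RNA and Cy3 was not used to choose the 10 transcripts, so its slide difference was tested. The scaled log2 Cy3 is, however, computed from both channels of a spot, so it is not free of the Cy5 that chose the genes. In log2 Cy3, 6 of the 10 were called between slide 2 and slide 1, all higher on slide 2, where 45.6% of all genes were called higher, 30.6% lower and 76.2% in either direction. The count was 6 without CC 1 and 6 without CC 2, and a fit without both is not given. Myl4 was higher on slide 2 by 0.31 ± 0.034 (SE, n = 8 arrays per slide, limma adjusted p = 1.3e-07) and Tnnc2 by 0.31 ± 0.064 (adjusted p = 0.000239). Cryab was higher by 0.19, Myl11 by 0.16, Mb by 0.09 and Eno3 by 0.05. The median of the 10 was 0.11 and that of all genes 0.04. On the arrays with high Cy5 the scaled Cy3 moved little beside it. The Cy3 deviation of the 10 was -0.38 to 0.51 on CC 1 and -0.39 to 0.20 on CC 2. Tnnc2 was at 0.51 and 0.18 and Lmod2 at -0.38 and -0.39. These need not be movements of the reference itself. The unscaled Cy3 intensity of Lmod2 was 54 and 50.25 on CC 1 and CC 2, within the 44.5 to 55.5 of slide 1. That of Tnnc2 was 593 and 419.5, against 313.5 to 366 on C 9 to C 12. Tnni2 read 599.75 and 445.5 against 366 to 400.5, and Mb 196.75 and 171 against 118.25 to 146.75. Tnnt1 read 376.75 and 337.5 against 265 to 301.75. Not all 10 did so, and Myl4 read 551 on both arrays, within the 517 to 569.5 of C 9 to C 12. The cause was not tested.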

How the data were processed

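Liver RNA in Cy5 and a universal rat reference RNA in Cy3 were measured on 16 arrays. The spot intensity values are the median pixel intensities of each spot and its local background, which the authors deposited as scanned with Agilent Feature Extraction 11.0.1.1, per the file headers. The log10 ratios of Cy5 over Cy3 come from the same software, per the file headers, with background subtracted and dyes normalised. The series table deposited by the authors has log2 ratios whose normalization is not given in the sources used here, with array medians of -0.049 to -0.037. They correlated with the ratios computed here at 0.996 to 0.997.

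Background was corrected by normexp with an offset of 50 and ratios were normalised within each array by loess, with control and outlier spots at weight 0 (limma 3.58.1 in R 4.3.3, data.table in version 1.17.8, jsonlite 2.0.0). Single channels were then scaled by Aquantile. Of 62976 spots 4259 were controls and 1.32% to 1.85% outliers. Probes were named through RefSeq accessions (assembly GRCr8), which gave 18005 of 30367 probes a symbol. The files annotate probes on build rn4, whose coordinates are not given here. Each gene was represented by its brightest probe. For tests, probes had to be well above background in Cy5 on 3 or more arrays of some group, which left 13262 probes and 12072 genes.

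Group means were estimated from the 16 arrays together by limma with eBayes (12 residual and 3.95 prior degrees of freedom), two-sided, with Benjamini-Hochberg adjustment over all genes and calls at an adjusted p below 0.05. The 10 transcripts were not tested in Cy5 or the ratio, since Cy5 chose them. The text names all 10, every muscle gene called in the ratio over the 16 arrays, the 10 genes most correlated with them and the 5 largest other deviations on each array where their mean deviation exceeded 1. Muscle genes called only under an alternative and examples from the lists, such as the slow sarcomere genes, Tnnt3, Ucp1 and Prss1, were named after their values were seen. The transcripts and the lists were chosen with earlier results of these data known.

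The labels say that pups of a group were paired at random for pooling and do not give the litter, so litter was not modelled. The number of arrays limits the precision. CC and MM share replicate numbers. The correlation of the deviations of same-numbered arrays was 0.34, 0.06, 0.19 and 0.11 for numbers 1 to 4, and -0.34 to 0.28 for the other pairings. These values do not settle whether the numbers are pairs. Numbers 1 and 2 lay in row 1 and numbers 3 and 4 in row 2 on both slides, so number and row go together in part. The numbers were not taken as pairs in the main fit, and a fit with them as a block is given below. The alternatives were another background offset, the scanner ratio, the series table, Cy5 alone, no filter, array row as a block, and leaving out each array. Fits without CC 1 and CC 2 and a fit of the CC and MM arrays alone were added after seeing the data. Other groups of the study were not analysed here.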

Additional observations from a re-analysis of the deposited data

Results flagged for a closer look

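In 2 of 40 sets of 4 arrays (the 10 transcripts in each of the 4 groups), 1 array lay far from the other 3 in log2 Cy5 by Dixon's criterion on the gap to the nearest array over the range. Chance gives about 1 in 20. Tnnt1 on MM 4 was low at 8.14, against 8.38 to 8.42 on the other MM arrays, with a gap over range of 0.852. Lmod2 on C 12 was high at 6.72, against 6.50 to 6.51 on the other C arrays, with a gap over range of 0.925, and C 12 was the only C array on which Lmod2 was well above background. In the CC group the 2 high arrays lie together, so this criterion does not single out CC 1 or CC 2.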

How the results depend on the processing

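The deviations of the 10 transcripts on CC 1 and CC 2 stayed positive under the 4 alternatives run: 1.11 to 5.52 with Cy5 scaled to the 75th percentile, 1.46 to 5.34 in the ratio, 1.25 to 5.40 with all probes of a gene averaged and 1.28 to 5.42 against the median of 16 arrays. The counts of other muscle genes called moved more. Between M and C, where 2 were called, the scanner log ratio gave 4, Cy5 alone 1, array row as a block 4 and Cy5 alone without CC 1 and CC 2 gave 0, and leaving out 1 array gave 1 to 2. Between MM and CC, where 5 were called, the series table gave 3, Cy5 alone 0, the fit without CC 1 and CC 2 gave 2 and that fit in Cy5 alone 0, array row as a block gave 7 and no filter 6, and leaving out 1 array gave 1 to 9. The fit of the 8 CC and MM arrays with the replicate number as a block gave 1, and the same 8 arrays without the block also gave 1. CC 4 correlated best with MM 3 (r = 0.28), so not every array correlated best with its own number. Hspb8 was the gene called in both. Over all genes the 8 arrays gave 2000 calls with the block and 1547 without it, 1444 of them shared. The block was run for MM against CC alone. Between CC and C and between MM and M the count was 0 to 0 when 1 array was left out. The reference channel count of 6 was 5 to 7. Over all genes, the 2459 calls between M and C became 4024 with the scanner log ratio and 383 in Cy5 alone, and the 2419 between MM and CC became 350 in Cy5 alone and 1465 without CC 1 and CC 2. The cause of these changes was not tested. Signals close to background limit what can be said of Lmod2 and Mb outside CC 1 and CC 2.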

Other observations

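Genes outside the muscle lists also differed between CC 1 and CC 2. Glycam1, a mucin-like adhesion gene of lymph node venules and mammary gland, stood at a log2 deviation of 3.74 on CC 1 (intensity 608.5) and -0.13 on CC 2. Actg2, the gamma-actin of enteric smooth muscle, stood at 1.38 on M 6, 1.18 on CC 1, 0.67 on C 10 and 0.42 on CC 2. Cidea, a lipid droplet gene of brown fat, stood at 2.25 on CC 1 and 1.30 on C 10, against 0.09 on CC 2. These genes were named after their values were seen.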
